A study of Mus musculus with 4 samples.

Results

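The 10 genes described here encode actin-binding and contractile regulators of smooth muscle and related cells: the calponins Cnn1, Cnn2 and Cnn3, the transgelins Tagln and Tagln2, caldesmon (Cald1), smoothelin (Smtn), myosin light chain kinase (Mylk), leiomodin 1 (Lmod1) and synaptopodin 2 (Synpo2). They were chosen by name with earlier results of these data known, as were the gene lists below, so comparisons with all genes are descriptive. All 10 were found among the 43346 gene identifiers of the count files by their Ensembl identifier. They were measured by RNA sequencing of whole hearts at P0, the day of birth. The wild type group had 2 libraries, from ICR mice. The MRTFA/B double knockout group also had 2, from mice of Mixed background, so genotype and strain background cannot be told apart. The labels do not say which exons were removed, in which cells, or whether the libraries of a group came from separate animals, so the spread that the p-values measure may be technical.

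Myocardin-related transcription factors (MRTFs) bind monomeric actin, and leave the cytoplasm for the nucleus when actin polymerises. There they act with serum response factor (SRF), which binds DNA at the CArG box and drives many genes of the actin cytoskeleton. Calponin 1, transgelin, smoothelin, leiomodin 1 and the long form of caldesmon are used as markers of contractile smooth muscle. In the heart such cells form the walls of the coronary vessels and the roots of the great arteries. Immature cardiomyocytes also make several smooth muscle proteins for a time.

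In 8 of the 10 genes every double knockout value was below every wild type value, and in none was every double knockout value above. Over all 16009 genes tested, 25.2% were below in this way and 25.8% above. The 10 genes together held 0.103% of all counts in each wild type library, and 0.0794% and 0.0835% in double knockout libraries 1 and 2. Their summed level was 1066 and 1039 CPM (reads scaled to the library total with TMM factors) in the wild type pair, and 766 and 827 CPM in the double knockout pair. The median log2 fold change over the 10 genes was -0.40, against 0.01 over all genes tested. None of the 10 passed the threshold of edgeR's quasi-likelihood test, a Benjamini-Hochberg adjusted p under 0.05 over all genes, which 0.0625% of genes passed as lower and 0.0125% as higher. Without adjustment, 6 of the 10 genes had an edgeR p under 0.05, all 6 lower, and by that rule 8.63% of all genes were lower and 8.70% higher. DESeq2 called 3 of them lower, Cnn1, Cnn2 and Smtn, and none higher, against 1.80% lower and 2.01% higher among the genes it tested.

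**Figure D1:**
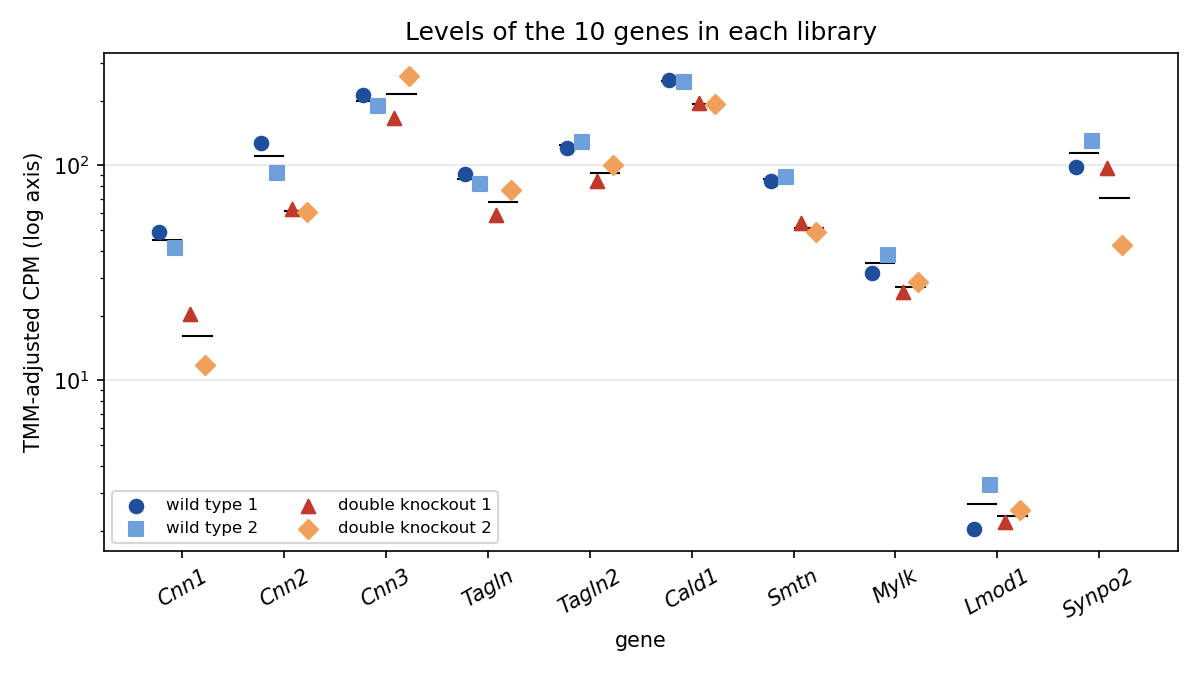
Level of each of the 10 genes in TMM-adjusted CPM on a log axis, with 1 point for each of the 4 libraries and a black line at each group's mean. Both double knockout points lie below both wild type points for 8 genes, while they overlap for Cnn3 and Lmod1.

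The targeted genes were read in every library. Mrtfa measured 9.06 and 11.1 CPM in the wild type pair against 3.35 and 2.26 CPM in the double knockout pair, so its groups did not overlap (log2 fold change -1.82, SE 0.26; edgeR adjusted p = 0.120). Mrtfb measured 46.9 and 56.8 CPM in the wild type pair against 46.0 and 49.6 CPM in the double knockout pair, and its groups overlapped. The count of a gene sums all its exons, deleted or not, so this Mrtfb level does not speak to the label. The related coactivator Myocd, which works with SRF in cardiac and smooth muscle, measured 140.3 and 159.7 CPM in the wild type pair against 133 and 188 CPM in the double knockout pair, on both sides of the wild type range. Srf itself measured 111 and 85.6 CPM in the wild type pair against 71.9 and 79.4 CPM in the double knockout pair (log2 fold change -0.38, SE 0.15; edgeR adjusted p = 0.284). The libraries held 16175259 to 29460641 counts, and 3 counts in 1 library correspond to 0.106 to 0.184 CPM. The fewest counts of the 10 genes in any library were 41, for Lmod1.

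Levels can be compared between genes after division by the length of their merged exons (CPM per kilobase). In wild type hearts the order ran from Cnn3 (66.0 ± 5.28, mean ± SD, n = 2) through Tagln2 (59.9 ± 2.60), Cnn2 (44.8 ± 10.1), Tagln (43.5 ± 3.39), Cald1 (20.6 ± 0.245), Smtn (19.8 ± 0.699), Cnn1 (16.5 ± 2.02), Synpo2 (8.71 ± 1.75) and Mylk (3.11 ± 0.420) to Lmod1 (0.671 ± 0.217 CPM per kilobase). The libraries of Cnn2 and Tagln overlapped in this order, and no other pair of neighbours did, although those of Cald1 and Smtn were close, with lowest and highest values of 20.4 and 20.3 CPM per kilobase. Cnn3 and Tagln2, forms found in many cell types, thus stood above the smooth muscle forms Tagln, Smtn and Cnn1 in these whole hearts. In double knockout hearts Tagln (34.1 ± 6.57) stood above Cnn2 (25.1 ± 0.559), and Cnn1 (5.90 ± 2.23) overlapped Synpo2 (5.36 ± 2.95 CPM per kilobase). The other genes kept their rank. Merged exons include exons that a given transcript may skip, so the per-kilobase level of genes with many transcript forms, such as Cald1, Mylk and Synpo2, is understated.

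The calponins bind actin through a calponin homology domain and short repeats. Calponin 1 also binds tropomyosin and slows actomyosin sliding in smooth muscle. Cnn1 (ENSMUSG00000001349, mm10 chromosome 9, 22099216 to 22109630) measured 49.0 and 41.2 CPM in the wild type pair against 20.5 and 11.8 CPM in the double knockout pair. The groups were well apart, and the lower double knockout library was the one with fewer reads. The log2 fold change was -1.47 (SE 0.27, 95% interval -2.15 to -0.79), a ratio of 0.358, and 0.80% of all genes tested had a lower fold change. The edgeR adjusted p was 0.141, while DESeq2 gave an adjusted p of 5.17e-05. Over 14 alternative settings the fold change stayed negative, from -1.94 to -1.14, and the adjusted p ranged from 1.63e-12 to 0.971.

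Calponin 2 is found in smooth muscle, endothelial cells, fibroblasts and white blood cells. Cnn2 (ENSMUSG00000004665, chromosome 10, 79988584 to 79996062) measured 128 and 92.6 CPM in the wild type pair against 62.6 and 60.7 CPM in the double knockout pair. The wild type libraries differed from each other, and both lay above both double knockout libraries. This gave a log2 fold change of -0.84 (SE 0.17, 95% interval -1.25 to -0.43), with an adjusted p of 0.146 in edgeR and 0.00531 in DESeq2.

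Calponin 3, the acidic calponin, is found in brain and in many embryonic cells. Cnn3 (ENSMUSG00000053931, chromosome 3, 121426497 to 121458207) measured 212 and 189 CPM in the wild type pair against 166 and 262 CPM in the double knockout pair. The double knockout libraries lay on either side of the wild type libraries, library 1 below and library 2 above. The log2 fold change was 0.09 (SE 0.22, 95% interval -0.47 to 0.65; edgeR adjusted p = 0.864), and it turned to -0.27 without double knockout library 2 and to 0.00 without wild type library 2.

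A share of reads within a family does not depend on how libraries are scaled. Cnn1 took 12.6% (exact 95% binomial interval 12.0% to 13.3%) and 12.8% (12.0% to 13.5%) of the calponin counts in wild type libraries 1 and 2. In double knockout libraries 1 and 2 it took 8.21% (7.58% to 8.87%) and 3.53% (3.06% to 4.06%). Both double knockout shares were below both wild type shares, by a mean of -6.82 percentage points, or -4.48 points when double knockout library 2 was left out. Cnn2 also took less, with 32.9% and 28.7% in wild type against 25.1% and 18.2% in double knockout, and Cnn3 took 54.5% and 58.6% against 66.7% and 78.3%. The shares of a library add up to the whole, so these are not separate results. The level of Cnn3 itself overlapped between the groups, and was highest in double knockout library 2 (262 CPM), where the Cnn1 share was lowest. The Cnn1 to Cnn2 ratio of counts was 0.384 and 0.445 in wild type and 0.327 and 0.195 in double knockout. For each of these the exact two-sided permutation test over 4 libraries gave p = 0.333, the smallest it can give, so this design cannot reach 0.05. Over the 23 shares and ratios tested this way, the adjusted p was 0.589. The intervals cover counting error only.

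**Figure D2:**
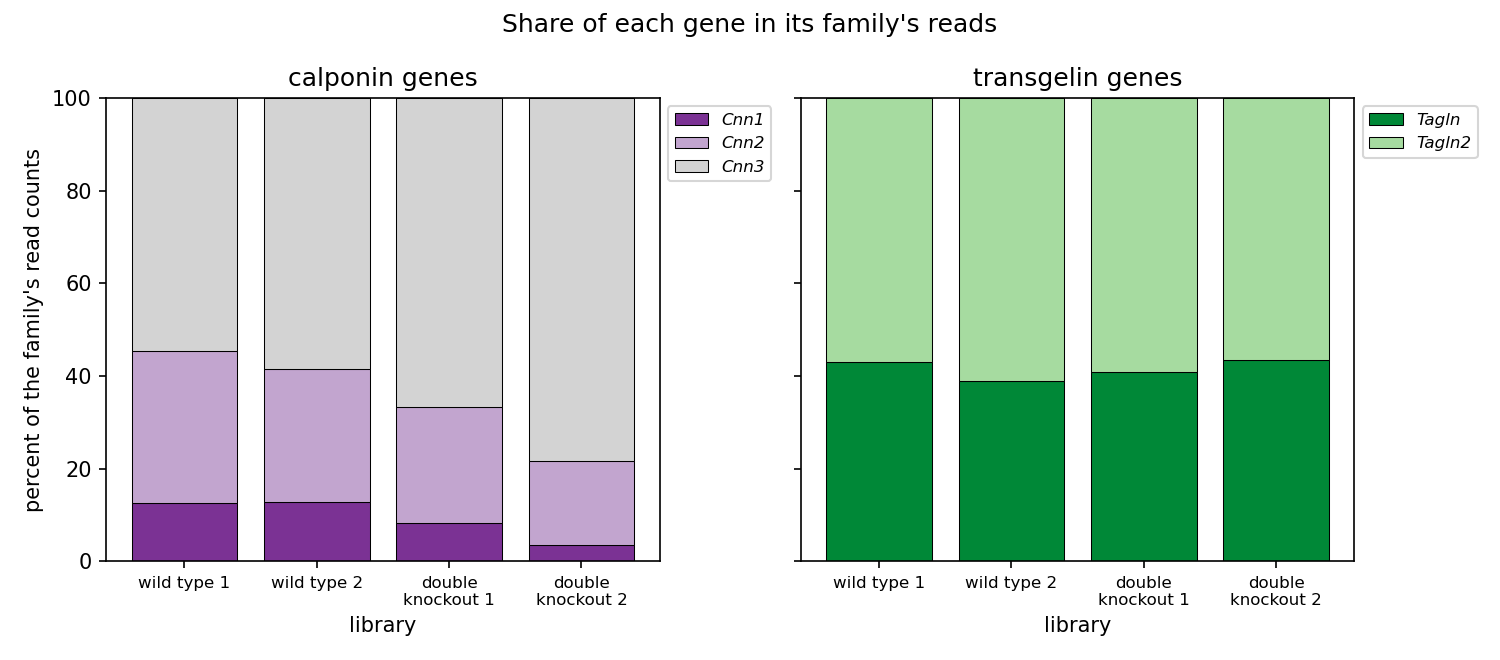
Percent of the read counts of the calponin family (left) and of the transgelin family (right) taken by each gene, with 1 stacked bar for each library. The Cnn1 band narrows from 12.6% and 12.8% in wild type to 8.21% and 3.53% in double knockout, while the Tagln band lies between 38.9% and 43.5% in all 4 libraries.

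The sequence just before the start site is shown for the 3 calponins because they belong to 1 family and had different values in double knockout hearts. The sequences come from RefSeq on GRCm38.p6, run 5′ to 3′ and end at the base before the RefSeq start. The gene starts printed above come from another annotation and lie inside these windows, so the last bases shown fall within the gene as printed. Capitals mark an exact CArG box, the site that SRF binds. All are on the plus strand, Cnn1 at chr9:22099003-22099252, Cnn2 at chr10:79988350-79988599 and Cnn3 at chr3:121426291-121426540.
Cnn1: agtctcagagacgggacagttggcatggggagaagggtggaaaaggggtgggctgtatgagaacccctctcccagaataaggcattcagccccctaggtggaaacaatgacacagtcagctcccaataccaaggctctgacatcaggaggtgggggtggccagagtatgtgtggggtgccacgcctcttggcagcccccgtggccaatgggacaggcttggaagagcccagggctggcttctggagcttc
Cnn2: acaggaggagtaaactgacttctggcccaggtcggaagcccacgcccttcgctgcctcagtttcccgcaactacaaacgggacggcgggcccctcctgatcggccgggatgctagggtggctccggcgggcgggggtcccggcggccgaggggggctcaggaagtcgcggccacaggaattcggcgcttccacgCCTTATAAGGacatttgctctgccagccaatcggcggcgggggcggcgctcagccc
Cnn3: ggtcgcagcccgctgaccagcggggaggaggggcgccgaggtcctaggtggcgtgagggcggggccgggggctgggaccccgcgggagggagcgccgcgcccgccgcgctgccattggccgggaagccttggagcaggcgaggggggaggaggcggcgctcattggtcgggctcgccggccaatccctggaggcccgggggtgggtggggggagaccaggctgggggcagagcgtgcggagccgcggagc

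The Cnn2 box reads CCTTATAAGG and begins 56 bases before the RefSeq start. The CArG pattern is its own reverse complement, so a search of 1 strand covers both. The search ran from 250 bases before to 50 bases after each start. The RefSeq table matched 9 of the 10 genes, all but Tagln, in 10 windows, and Cnn2 held the only exact box. Of all 32817 windows in the table, 535 (1.63%) held one. Of the 14 other smooth muscle filament genes, 12 were matched, in 14 windows, and the windows of Myl6, Myl9 and Vcl held one. A match is a description of the letters in this window, and says nothing on binding.

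Transgelin (SM22 alpha) has 1 calponin homology domain and cross-links actin filaments in smooth muscle, and transgelin 2 is its counterpart in many other cells. Tagln (ENSMUSG00000032085, chromosome 9, 45929619 to 45936058) measured 91.3 and 81.8 CPM in the wild type pair against 58.5 and 77.0 CPM in the double knockout pair. The groups did not overlap, but double knockout library 2 came within a ratio of 0.942 of the lower wild type library. The log2 fold change was -0.35 (SE 0.16, 95% interval -0.74 to 0.03; edgeR adjusted p = 0.321), which became -0.57 when double knockout library 2 was left out and -0.17 when library 1 was. Tagln lies on the minus strand and shares 108 exon bases, 5.43% of its own, with Pcsk7 on the plus strand, which had 477 to 861 counts. It also shares 62.4% with Gm48529, an antisense gene of the annotation that was not analysed here. Cnn3 shares 17.7% of its exon bases with Gm42928, and Mylk 4.87% with E130310I04Rik, both on the other strand and not analysed here. Since the strand setting of the counting is not given, reads of such pairs cannot be told apart.

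Tagln2 (ENSMUSG00000026547, chromosome 1, 172500047 to 172507380) measured 121 and 129 CPM in the wild type pair against 84.5 and 100.02 CPM in the double knockout pair. Its groups did not overlap either. The fold change was -0.44 on the log2 scale (SE 0.12, 95% interval -0.74 to -0.13; edgeR adjusted p = 0.187). The share of Tagln in the counts of the 2 transgelins lay in a narrow range: it took 43.0% and 38.9% in wild type and 40.9% and 43.5% in double knockout. The groups overlapped, with a mean difference of 1.28 percentage points (exact two-sided permutation p = 0.667), and the sign turned without wild type library 2 or double knockout library 2.

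Caldesmon binds actin, tropomyosin and myosin and holds back actomyosin activity until calmodulin or a kinase releases it. Cald1 (ENSMUSG00000029761, chromosome 6, 34598500 to 34775473) measured 249.7 and 245 CPM in the wild type pair against 194 and 192 CPM in the double knockout pair. The libraries within each group were close, with an SD of 2.95 CPM in the wild type pair and 1.44 CPM in the double knockout pair, around means of 248 and 193 CPM. For Cald1 the log2 fold change was -0.36 (SE 0.10, 95% interval -0.61 to -0.11; edgeR adjusted p = 0.188), and no alternative setting placed it past the threshold. The count does not separate the long smooth muscle form from the short form of other cells.

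Smoothelin is bound to actin stress fibres in contractile smooth muscle. Smtn (ENSMUSG00000020439, chromosome 11, 3517523 to 3540612) measured 84.4 and 88.8 CPM in the wild type pair against 53.7 and 49.2 CPM in the double knockout pair. The distance between the groups was many times the spread within either, with an SD of 3.06 and 3.20 CPM. The resulting log2 fold change was -0.75 (SE 0.11, 95% interval -1.01 to -0.49). Its unadjusted edgeR p of 4.40e-04 was the smallest of the 10 genes, the adjusted p was 0.120 in edgeR and 6.51e-04 in DESeq2, and the fold change lay between -0.82 and -0.68 over 14 alternative settings. Smtn shares 16.3% of its exon bases with Gm11946 on the other strand, which had 2 to 13 counts.

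Myosin light chain kinase phosphorylates the regulatory light chain and so starts smooth muscle contraction. Mylk (ENSMUSG00000022836, chromosome 16, 34745210 to 35002420) measured 31.6 and 38.3 CPM in the wild type pair against 25.7 and 28.6 CPM in the double knockout pair. The groups did not overlap, and the nearest libraries had a ratio of 0.903. For Mylk the log2 fold change was -0.37 (SE 0.15, 95% interval -0.73 to -0.01; edgeR adjusted p = 0.284), and it was -0.24 without wild type library 2. The gene also encodes telokin, a short protein of smooth muscle that shares its last exons, and the count covers both.

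Leiomodin 1 nucleates actin filaments in smooth muscle. Lmod1 (ENSMUSG00000048096, chromosome 1, 135324807 to 135368065) measured 2.04 and 3.25 CPM in the wild type pair against 2.19 and 2.51 CPM in the double knockout pair. Both double knockout values lay inside the wild type range, and the counts were 41 to 81 per library. The estimate was -0.18 (log2, SE 0.32, 95% interval -0.96 to 0.60; edgeR adjusted p = 0.811), and it depended on every library: it was -0.48 and 0.18 when wild type library 1 or 2 was left out, and -0.07 and -0.27 when double knockout library 1 or 2 was. The interval holds changes of either sign, so these libraries do not settle the direction of Lmod1.

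Synaptopodin 2 (myopodin) bundles actin and sits at the Z-disc of striated muscle as well as in smooth muscle. Synpo2 (ENSMUSG00000050315, chromosome 3, 123076519 to 123236149) measured 97.9 and 130.2 CPM in the wild type pair against 97.5 and 42.9 CPM in the double knockout pair. Double knockout library 1 was level with wild type library 1, and library 2 alone stood far below. A log2 fold change of -0.69 (SE 0.41, 95% interval -1.77 to 0.38; edgeR adjusted p = 0.452) became -0.23 when double knockout library 2 was left out and -1.41 when library 1 was, so its size depends on 1 library. With upper-quartile factors, no composition factors or the stricter filter its groups overlapped, which left 7 genes lower in both double knockout libraries.

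**Figure D3:**
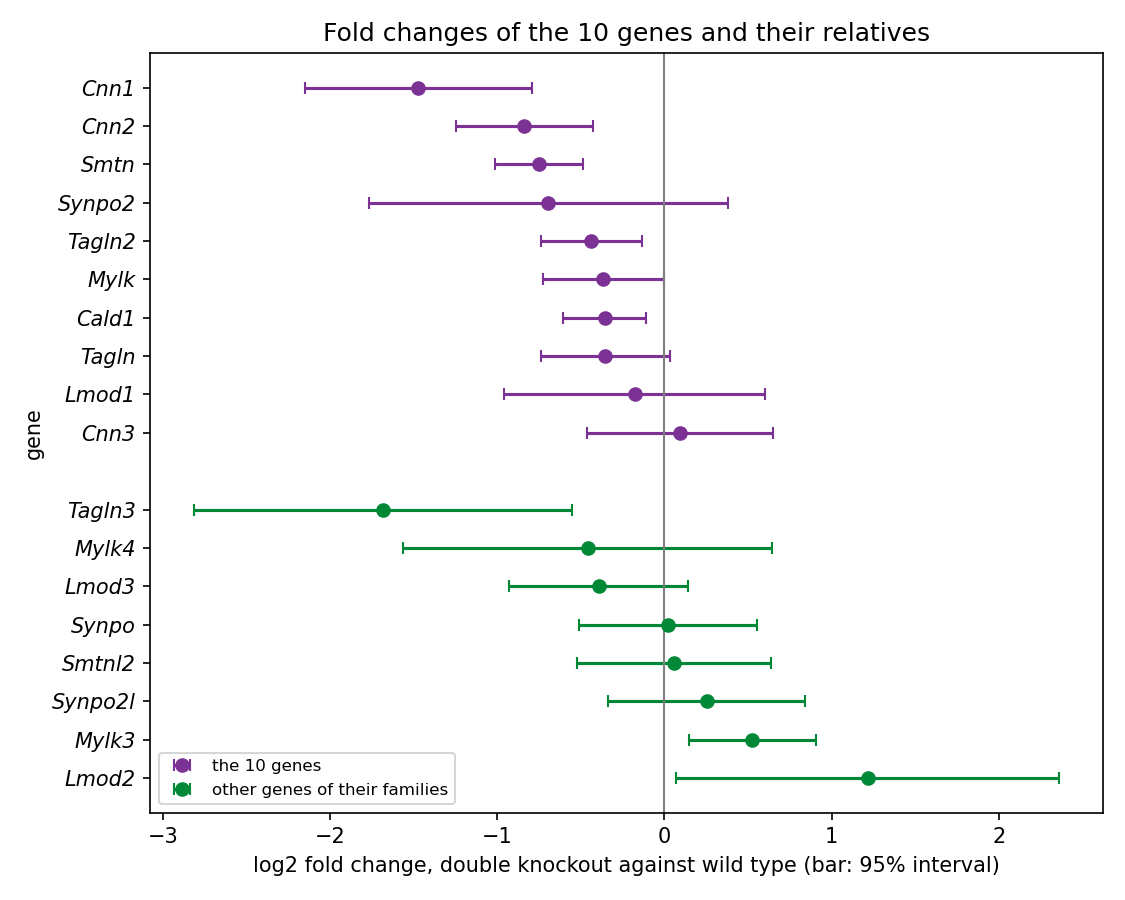
Log2 fold change of double knockout against wild type for the 10 genes (upper block) and for 8 other genes of their families (lower block), with 95% intervals of the edgeR fit. Points run from -1.47 for Cnn1 to 0.09 for Cnn3 in the upper block, and from -1.68 for Tagln3 to 1.22 for Lmod2 in the lower block.

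Which of the 10 genes were called depended on the library left out. Without double knockout library 1, edgeR called Cnn1, Cnn2, Smtn and Synpo2 lower and Cnn3 higher, where 8.13% of genes were called lower and 9.00% higher. Without double knockout library 2 it called Cnn1, Tagln, Tagln2 and Smtn lower and none higher, where 4.46% of genes were lower and 3.78% higher. Without either wild type library it called none of the 10, where 0.0121% and 0.0180% of genes were called lower. In such fits the lone library of a group is assumed to vary like the other group's. Cnn1 and Smtn were the genes called in both fits that left out a double knockout library. With no filter on low counts, edgeR called Cnn1, Cnn2, Tagln2 and Smtn lower and none higher, against 3.15% and 2.92% of genes.

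The 10 genes have relatives that serve the sarcomere of striated muscle or other cells. Of 10 such relatives 8 were tested, 3 with a negative and 5 with a positive fold change. Their median was 0.04, but it was 0.30 and 0.16 when wild type library 1 or 2 was left out, -0.11 without double knockout library 2 and 0.11 with no composition factors. None passed the edgeR threshold, and 2 lay higher in both double knockout libraries, where 25.8% of all genes did. Mylk3, the cardiac myosin light chain kinase, measured 641 and 603 CPM in the wild type pair against 1007 and 784 CPM in the double knockout pair (log2 fold change 0.53, SE 0.15; edgeR adjusted p = 0.193). Lmod2, the leiomodin that lengthens cardiac thin filaments, measured 214 and 163 CPM in the wild type pair against 258 and 617 CPM in the double knockout pair (1.22, SE 0.44; edgeR adjusted p = 0.271). Both cardiac genes lay higher in both double knockout libraries, and for Lmod2 library 2 made up most of the distance.

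Set against these relatives within each library, Mylk was at 0.0494 and 0.0636 counts per Mylk3 count in wild type and at 0.0256 and 0.0364 in double knockout. The groups did not overlap, nor did they for Lmod1 per Lmod2 count, at 0.00957 and 0.0200 in wild type and 0.00847 and 0.00407 in double knockout. The exact permutation p was 0.333 for each. Lmod1 had only 41 to 81 counts per library, and its own level overlapped between the groups, while Lmod2 lay higher in both double knockout libraries. Synpo2 per Synpo2l count overlapped, at 0.221 and 0.358 in wild type and 0.261 and 0.0730 in double knockout.

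The remaining relatives gave no such separation, apart from a very low gene. Lmod3, a leiomodin of striated muscle, measured 152 and 107 CPM in the wild type pair against 112 and 84.9 CPM in the double knockout pair. Over wild type libraries 1 and 2 and then double knockout libraries 1 and 2, Smtnl2 measured 46.7, 65.8, 68.2 and 48.4 CPM, and Synpo, the synaptopodin of podocytes and neurons, at 50.4, 61.8, 45.9 and 68.2 CPM. None of these 3 separated the groups, nor did Mylk4, at 25.9, 10.9, 12.3 and 14.6 CPM in the same order. Tagln3, the transgelin of neurons, was lower in both double knockout libraries but near the limit of the data, at 0.705 and 0.603 CPM against 0.212 and 0.184 CPM. Smtnl1 and Mylk2 did not pass the filter on low counts.

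The smooth muscle filament and anchor genes, 14 in all, had negative fold changes throughout, with a median of -0.44. Not all of them are particular to smooth muscle, and whole-heart counts do not say which cells the reads came from. In wild type Tpm1 had a mean of 5400 CPM and Des of 768 CPM, against 25.3 CPM for Myh11. Of the 14, 11 (78.6%) lay lower in both double knockout libraries, where 25.2% of all genes did. So did 5 of the 8 cardiomyocyte markers described below (62.5%). None of the 14 passed the edgeR threshold, and 8 were lower at an unadjusted edgeR p under 0.05, against 8.63% of all genes. DESeq2 called Myl9, Acta2 and Tpm2 lower, against 1.80% of the genes it tested. The lowest fold change on the log2 scale was that of Myl9, a regulatory light chain (-2.51, SE 0.27). Cnn1, at -1.47, lay between those of Acta2 (-2.18, SE 0.37), the actin of smooth muscle, and Tpm2 (-1.15, SE 0.27), a tropomyosin. So Cnn1 stood with the genes of lowest fold change, and the other 9 of the 10 genes did not reach them. Actg2, the actin of visceral smooth muscle, measured 2.82 and 4.74 CPM in the wild type pair against 1.41 and 1.47 CPM in the double knockout pair. Myh11, the smooth muscle myosin heavy chain, measured 19.9 and 30.7 CPM in the wild type pair against 18.9 and 15.4 CPM in the double knockout pair (log2 fold change -0.56, SE 0.24, edgeR adjusted p = 0.312). The actin cross-linkers Actn1 (-0.43, SE 0.10) and Flna (-0.28, SE 0.12) and the LIM proteins Pdlim7 (-0.47, SE 0.14), Pdlim3 (-0.37, SE 0.15) and Csrp1 (-0.28, SE 0.16) lay nearer to Cald1, Tagln and Tagln2. Tpm1 was at -0.45 (SE 0.16), Des at -0.21 (SE 0.12), Myl6 at -0.14 (SE 0.18) and Vcl at -0.03 (SE 0.24).

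Read counts per Myh11 count set Cnn1, Tagln, Smtn, Mylk and Lmod1 against a smooth muscle gene that encodes no actin binder of these families. Myh11 was itself lower in both double knockout libraries (log2 fold change -0.56, SE 0.24). Cnn1 was at 2.46 and 1.34 counts per Myh11 count in wild type and at 1.08 and 0.769 in double knockout, below both wild type libraries (exact permutation p = 0.333). Tagln was at 4.59 and 2.66 in wild type and at 3.09 and 5.02 in double knockout, and Smtn at 4.24 and 2.89 against 2.84 and 3.20. Mylk was at 1.59 and 1.25 against 1.36 and 1.86. The groups overlapped for Tagln, Smtn and Mylk, with an exact permutation p of 0.667 each. Lmod1 was at 0.103 and 0.106 in wild type and at 0.115 and 0.163 in double knockout, above both wild type libraries (exact permutation p = 0.333). These ratios rest on 58 and 81 Lmod1 counts in wild type and 62 and 41 in double knockout. The level of Lmod1 itself overlapped between the groups, while Myh11 was lower in double knockout. Tagln was at 0.0308 and 0.0557 counts per Acta2 count in wild type and at 0.109 and 0.175 in double knockout, above both wild type libraries. Acta2 itself had a log2 fold change of -2.18, against -0.35 for Tagln, so this ratio rose while the level of Tagln did not. Cnn1 per Acta2 count overlapped, at 0.0166 and 0.0281 against 0.0382 and 0.0269.

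Genes that act on the same light chain as Mylk were described as a group of 15, made up of calmodulins, myosin phosphatase subunits, ion channels and related regulators. Of these, 9 had a negative and 6 a positive fold change around a median of -0.11 (-0.07 without wild type library 1, and -0.04 with no composition factors), and none passed the threshold of edgeR or DESeq2. Among the most abundant were Ppp1cb, the catalytic subunit of myosin phosphatase (1075 and 904 CPM in the wild type pair, 824 and 921 CPM in the double knockout pair) and the L-type calcium channel Cacna1c (415 and 488 against 415 and 500.4 CPM). Both overlapped between the groups. Kcnmb1, a potassium channel subunit of smooth muscle that was chosen after its values were seen, had the lowest fold change of the 15 at -1.31 (SE 0.27; edgeR adjusted p = 0.148), with 3.42 and 2.97 CPM in the wild type pair and 1.20 and 1.41 CPM in the double knockout pair.

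**Figure D4:**
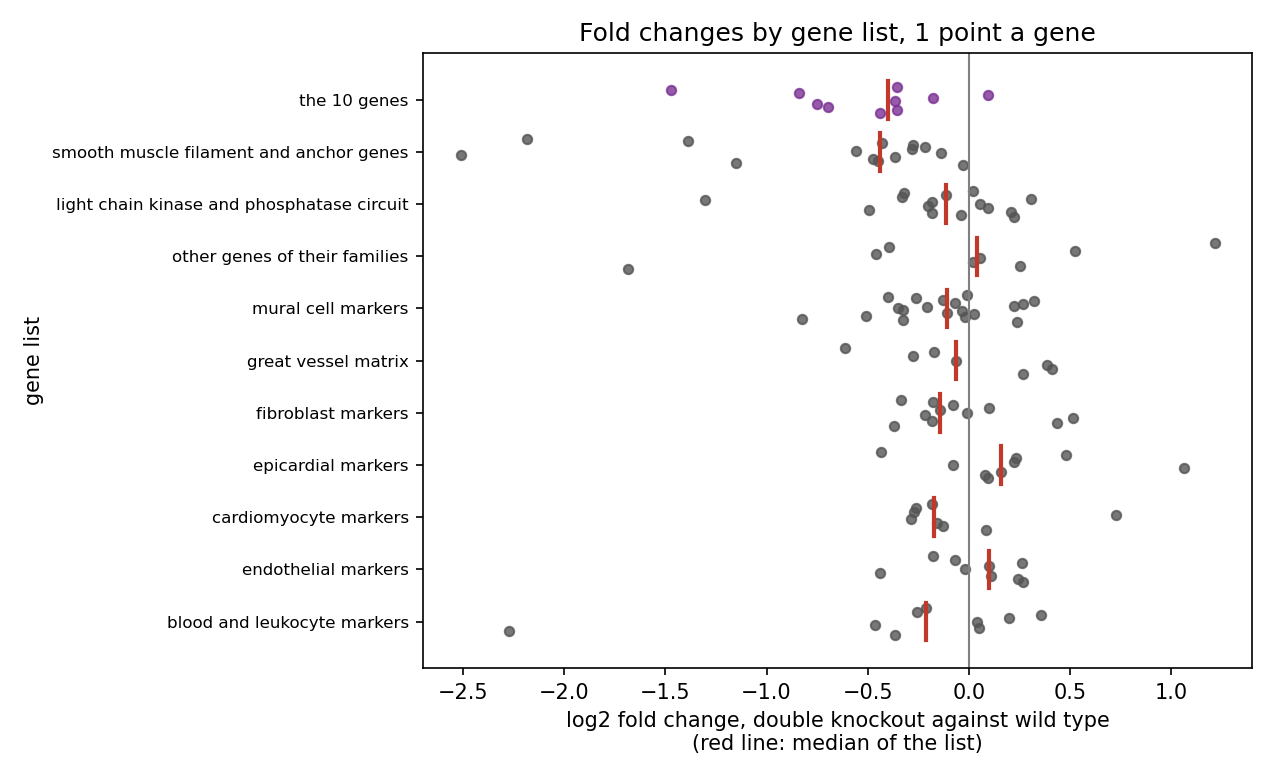
Log2 fold change of each tested gene, 1 point a gene, for the 10 genes, for genes of the same filaments and pathway, and for markers of the cell types of the heart, with a red line at each list's median. The medians of the 10 genes (-0.40) and of the smooth muscle filament and anchor genes (-0.44) lie farthest from 0.

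In bulk tissue, fewer cells of a type and less RNA per cell cannot be told apart, so markers of the cells that could carry these genes are given beside them. Of 19 markers of mural cells (smooth muscle and pericytes) that bind no actin, 14 were negative in log2 fold change (median -0.11), and no marker passed the threshold of edgeR or DESeq2. Their summed level was 1616 and 1682 CPM in the wild type pair and 1592 and 1528 CPM in the double knockout pair. The ratio of these sums was 0.946, against 0.756 for the 10 genes and 0.952 for all genes tested. It mixes unlike genes, since the ratio was 0.994 for Abcc9, 0.797 for Rgs5 and 0.927 for Mcam. No marker of the list was at 0 in all libraries. The most abundant were Abcc9, a potassium channel subunit that cardiomyocytes also express (467 and 503 CPM against 499.7 and 465 CPM), Rgs5, a G protein regulator of pericytes (377 and 391 against 325 and 288 CPM), and the adhesion molecule Mcam (250.04 and 201 against 204 and 214 CPM). Rgs5 lay lower in both double knockout libraries (log2 fold change -0.33, SE 0.12; edgeR adjusted p = 0.247). So did Rgs4, another regulator of G protein signalling, and the receptor Notch3, both chosen after their values were seen. Of the 19 markers, 5 (26.3%) lay lower in this way and 3 lay higher, against 25.2% and 25.8% of all genes. Those higher, also named after their values were seen, were Ednra, Gucy1b1 and Vtn. Their log2 fold changes were 0.32 (SE 0.15), 0.22 (SE 0.11) and 0.24 (SE 0.29). Rgs4 measured 13.6 and 14.1 CPM in the wild type pair against 9.10 and 6.42 CPM in the double knockout pair (log2 fold change -0.83, SE 0.21; adjusted p = 0.170 in edgeR and 0.0562 in DESeq2). Notch3 measured 32.4 and 36.6 CPM in the wild type pair against 22.01 and 26.6 CPM in the double knockout pair (log2 fold change -0.51, SE 0.15; adjusted p = 0.195 in edgeR and 0.164 in DESeq2). Both fold changes were lower than the median of the 10 genes. The mural median ran from -0.19 without wild type library 1 to -0.04 without wild type library 2, and was also -0.04 with no composition factors. The part of mural cell number in the values of the 10 genes was not tested.

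Markers of the other cell types had medians of -0.06 (7 matrix genes of the great vessels), -0.14 (11 of fibroblasts), 0.16 (9 of epicardium), -0.17 (8 of cardiomyocytes), 0.10 (9 of endothelium) and -0.21 (9 of blood and leukocytes). Most of these medians depended on single libraries. The great vessel median ran from -0.31 without double knockout library 2 to 0.25 without wild type library 2, and the fibroblast median from -0.25 without double knockout library 2 to 0.03 without double knockout library 1. The blood median ran from -0.42 without double knockout library 2 to -0.03 without wild type library 1, the epicardial median was 0.07 without double knockout library 1, and the endothelial median was 0.04 without wild type library 1. The cardiomyocyte median stayed between -0.19 and -0.14 when any 1 library was left out, and was -0.10 with no composition factors. None of these passed the edgeR threshold, and DESeq2 called Tbx18 of the epicardium higher and the globin Hbb-bt lower, both chosen after their values were seen. The ratio of summed levels, double knockout to wild type, lay between 0.928 for fibroblasts and 1.18 for epicardium, against 0.952 for all genes tested. The epicardial ratio rested largely on Tbx18, with group means of 30.3 CPM (wild type) and 63.2 CPM (double knockout). The mean epicardial sums were 187 and 220 CPM, in that order. Fibroblast markers summed to 4821 and 5184 CPM in the wild type pair and to 4073 and 5213 CPM in the double knockout pair, so the groups overlapped. Cardiomyocyte markers summed to 44170 and 42766 CPM in the wild type pair and to 41453 and 39338 CPM in the double knockout pair, a ratio of 0.929. That is lower in both double knockout libraries, but so was the sum over all genes tested, which TMM factors do not hold equal. It was 1037560 and 1012140 CPM in the wild type pair and 963004 and 988823 CPM in the double knockout pair. The part of these cell types in the values of the 10 genes was not tested. Of 10 markers of lung, skeletal muscle precursors and thymus, 1 passed the filter on low counts and 4 were at 0 in all libraries.

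Genes whose pattern over the 4 libraries was most like that of Cnn1 or Tagln were ranked by the distance between centred log2 CPM profiles. Nearest to Cnn1 were the nucleoside transporter Slc28a2 (distance 0.0940), the small heat shock protein of muscle Hspb6 (0.107), the mitochondrial fission protein Mtfp1 (0.186), Fam213b (0.232) and Lyrm7 (0.232). Hspb6 measured 129 and 109.7 CPM in the wild type pair against 56.7 and 35.0 CPM in the double knockout pair, with the same order of libraries as Cnn1. Nearest to Tagln were the mitochondrial transaminase Got2 (0.0371), Larp1 (0.0376), Myadm (0.0428), Rad9a (0.0478) and the small GTPase Arf6 (0.0516). Among the 10 genes themselves, the closest pair was Tagln2 and Mylk, at a distance of 0.169, followed by Tagln2 and Cald1 at 0.215 and Tagln and Tagln2 at 0.218. These are likenesses of 4 values and carry no test.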

How the data were processed

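RNA of hearts at P0 was sequenced in 4 libraries, 2 per group by the titles of the labels. The deposited values are raw counts of reads per gene, which the authors made with HTSeq on mm10, per the submitters' processing notes, which also name DESeq 1.10.1. No aligner, annotation release or strand setting was given in the sources used here. Symbols, positions and merged exon lengths came from GENCODE M21 (same build), which matched 42462 of 43346 identifiers; no row lacked a gene.

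Genes passing filterByExpr (16009) were fitted with edgeR 4.0.16 in R 4.3.3 (quasi-likelihood, robust, TMM factors, no covariate) over all 4 libraries, with Benjamini-Hochberg adjustment. SE is the fold change over the root of the F statistic, and 95% intervals use its t distribution. DESeq2 1.42.0 and limma 3.58.1 (voom), other scalings and filters, a replicate block and leaving out each library were alternatives. The code was tested on simulated data. CPM and CPM per kilobase were computed from the counts. Profile distances used log2(CPM + 0.5) and genes of at least 5 CPM.

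All 10 genes, Mrtfa, Mrtfb, Myocd and Srf, their relatives and the filament genes were named by rule, as were the 3 most abundant genes of other lists where none passed, printed for 2 lists only (1 of these genes is not reported here), and the 5 nearest profiles. The 10 genes and all lists were chosen with earlier results of these data known.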

Additional observations from a re-analysis of the deposited data

How the results depend on the processing

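The calls depended on the test and on single libraries, while the direction of 8 of the 10 genes did not turn under any of the 14 alternative settings; Cnn3 and Lmod1 were the exceptions. Over all genes, 2 were higher and 10 lower; the counts were 1 higher with RLE factors, upper-quartile factors, the stricter filter, edgeR without robust estimation and limma-voom, 729 higher and 785 lower with no filter, and 277 higher and 249 lower in DESeq2. Of the 10 genes, 0 were lower, against 4 with no filter and 3 in DESeq2. The replicate block, a pairing the labels do not explain, gave 0 higher and 2 lower genes over all genes tested and 0 of the 10. The deviations of same-numbered libraries correlated at r = -0.123 across genes, which are not independent replicates; a crossed block, chosen after seeing the data, gave 0 higher and 3 lower. Leaving out 1 library gave 0 to 1468 higher and 2 to 1327 lower genes, and 0 to 1 higher and 0 to 4 lower of the 10. In those fits the median of the 10 ranged from -0.504 to -0.344, the Cnn3 fold change from -0.27 to 0.38, that of Lmod1 from -0.48 to 0.18, and the Tagln share difference from -0.791 to 3.35 percentage points. With no composition factors the median of the 10 was -0.333. The cause was not tested. Lmod1 had the fewest counts of the 10 genes.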
